A study of Mus musculus with 18 samples.

Results

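Spleen gamma delta T cells (Tgd) were compared with spleen NK1.1+ T cells (NKT), both taken 2 h after mice had received interferon-gamma (IFNg). The members were the 2 arrays titled as Tgd and the 2 titled as NKT, 4 of the 18 arrays of the series, and the comparison ran over all 19752 genes that could be tested. All 4 samples came from male C57BL/6 (B6) mice aged 6 weeks that had been given 10000 U of IFNg under the skin, and the cells were sorted on a FACSAria into TriZol. The gamma delta cells were gated as TCRgd+ with TCRB+ cells left out, and the other population as NK1.1+ TCRB+. The latter gate names no CD1d tetramer, so it takes any NK1.1+ T cell with an alpha beta receptor and not invariant NKT cells alone. Every array of the series carried the same treatment and time, and untreated mice were not analysed here. All statements are therefore about how the populations differed after IFNg, not about a response to it. Whether the arrays of a population represent different mice is not stated in the labels, so a p-value here reflects array-to-array spread, possibly technical.

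Both populations are innate-like T cells, which leave the thymus with effector functions already prepared and answer within hours. Gamma delta T cells carry a receptor of gamma and delta chains, and their effector subsets make either interleukin-17 or IFNg. NKT cells carry an alpha beta receptor, many of them an invariant one that sees lipids on CD1d, and depend on the transcription factor PLZF (Zbtb16). IFNg binds a receptor of IFNGR1, which binds the cytokine, and IFNGR2, which is needed for signalling through the kinases JAK1 and JAK2. T cells are known to set their sensitivity to IFNg through the amount of IFNGR2.

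Values are log2 of the deposited intensity of a probe set, the group of probes that reads out a transcript, and a difference of 1 on this scale is 2-fold. Array medians lay between 138.5 and 151.0 on the linear scale. Across genes, the Tgd arrays correlated at r = 0.9959 and the NKT arrays at r = 0.9955, while a Tgd and an NKT array correlated at 0.9802 to 0.9836. Tgd arrays correlated about as highly with CD4+ T cell arrays (0.9803 to 0.9824) and CD8+ T cell arrays (0.98 to 0.9837). For NKT arrays these ranges were 0.9702 to 0.9764 and 0.9684 to 0.974. Between the 2 Tgd arrays 15 genes differed 2-fold or more, and between the 2 NKT arrays 13. A gene passed the test where its difference was 2-fold or more and its limma adjusted p was under 0.05. Of all genes tested, 394 passed, which is 1.99%. In Tgd 220 genes were higher (1.11% of all tested), and in NKT 174 (0.881%). At 4-fold or more, 44 genes were higher in Tgd and 34 in NKT, and the median difference over all genes was −0.02. In sorted bulk samples, fewer cells of a type and less RNA per cell cannot be told apart.

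The receptor genes and the gene for NK1.1 check the sort and are no finding, since the gates used their proteins. Trdv2-2, a delta chain variable gene, stood at 12.44 and 12.34 in Tgd and at 5.5 and 5.56 in NKT, a difference of 6.86 ± 0.20 (SE, 2 arrays a population) or 116-fold. Klrb1c, which encodes NK1.1, stood at 9.08 and 8.79 in Tgd and at 12.13 and 12.09 in NKT (difference −3.18 ± 0.21). Trbv1, a beta chain variable gene, stood at 9.35 and 9.28 in Tgd against 11.70 and 11.70 in NKT (difference −2.38 ± 0.15). Its mean was also 10.72 in granulocytes, above both Tgd arrays, so this probe set is a weaker check of the sort. These 3 genes lay on the side that the gates give, with no overlap of arrays. The gamma chain gene Trgv1 did so by a smaller margin, with 12.95 and 13.02 in Tgd and 11.88 and 11.89 in NKT (difference 1.1 ± 0.21, limma adjusted p = 0.00236). Trgv1 was thus bright in both populations, above its mean of 9.42 in NK cells, 8.53 in CD4+ T cells (T4) and 6.17 in CD8+ T cells (T8), and as a label of gamma delta cells it separated them from NKT weakly. Cd3e, a chain of the CD3 complex that both cell types need, differed by −0.01 ± 0.17 (limma adjusted p = 0.997). The zeta chain Cd247 was higher in Tgd by 1.06 ± 0.15.

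Only 2 of 21 gamma and delta chain genes and 2 of 28 alpha and beta chain genes on the lists had a probe set of their own, and the constant region genes were not analysed here. Of these 4 genes the alpha chain variable gene Trav14-1 went against the gates. It stood at 10.94 and 10.91 in Tgd and at 6.95 and 7.41 in NKT. Its mean was 9.52 in T4 and 9.09 in T8. A second probe set for the same gene differed by 0.16, so the 2 readings of this gene disagree in size. Outside the lists, 4 further alpha chain variable genes were measured and were looked up after the values were seen. Trav12-2 was higher in NKT, at 3.17 and 3.22 in Tgd against 4.05 and 4.66, near the floor of the arrays (difference −1.16 ± 0.26, limma adjusted p = 0.00795). It lost its call without NKT replicate 2 (limma adjusted p = 0.167), Tgd replicate 2 (limma adjusted p = 0.0598) or Tgd replicate 3 (limma adjusted p = 0.0544), and was −0.26 after adding 50 to each intensity. Trav7d-4 (−0.83), Trav19 (−0.69) and Trav13-5 (0.39) did not pass. Whether probes of such variable genes also catch transcripts of related segments was not tested.

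**Figure D1:**
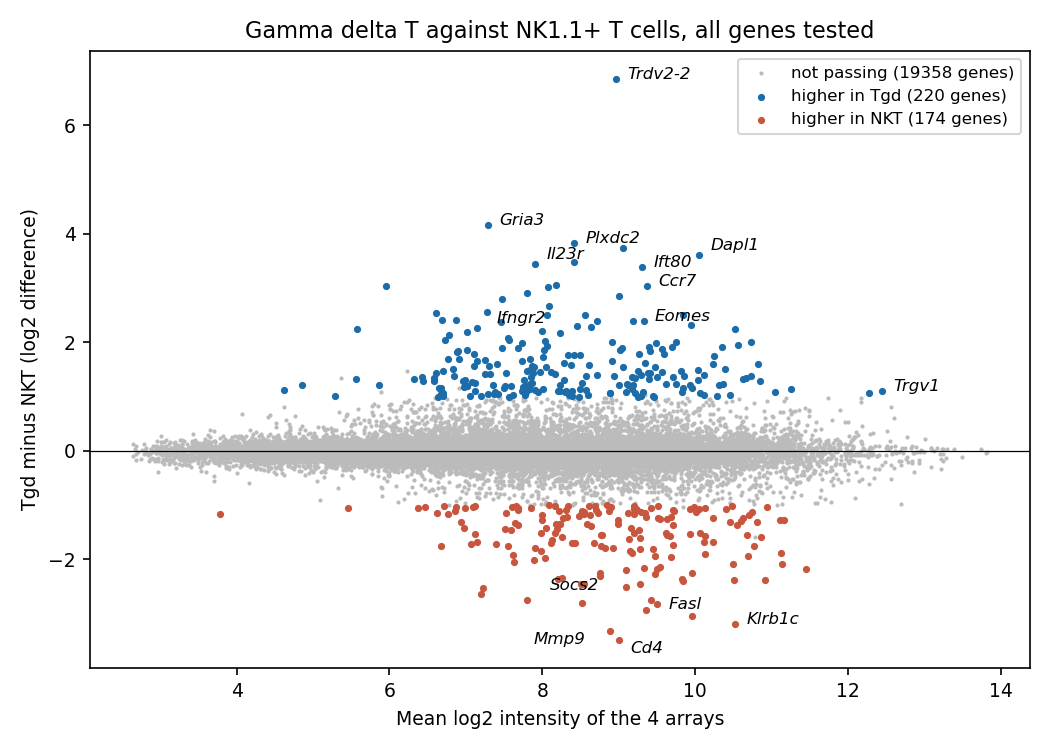
Difference between Tgd and NKT (vertical axis, log2, Tgd minus NKT) against the mean log2 intensity of the 4 arrays (horizontal axis) for all genes tested. Each point is a gene; the 220 blue genes were higher in Tgd and the 174 red genes higher in NKT, with Trdv2-2 at 6.86 far above the rest and Cd4 at −3.48 the lowest.

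Beyond the receptor genes, the largest differences in favour of Tgd were in genes of quite different roles. Gria3, a subunit of an AMPA-type glutamate receptor, stood at 9.29 and 9.46 in Tgd and at 5.17 and 5.23 in NKT, a difference of 4.17 ± 0.15 (limma adjusted p = 1.64e-11). Plxdc2, a membrane protein with a plexin domain, stood at 10.37 and 10.30 against 6.61 and 6.39 (difference 3.84 ± 0.16). Il23r, the receptor chain through which interleukin-23 sustains interleukin-17 producing cells, stood at 9.60 and 9.63 against 6.04 and 6.31, a difference of 3.44 ± 0.16 or 10.9-fold (limma adjusted p = 2.35e-10). For these 3 genes every Tgd array lay above every NKT array by more than 3 log2 units. The mean of Il23r was between 4.99 and 6.03 in the 7 populations other than Tgd and NKT, whereas Plxdc2 was brighter in peritoneal macrophages (MF), at 12.98, and Gria3 reached 7.91 in T8. Dapl1 (3.61), Fam169b (3.49), Ift80 (3.39), Lilr4b (3.06), Ccr7 (3.04), Itgae (3.02) and Cd8b1 (2.92) completed the 12 largest differences toward Tgd, together with Trdv2-2 and Trav14-1.

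Toward NKT the largest difference was in Cd4, the coreceptor of class II-restricted T cells, at 6.99 and 7.52 in Tgd and 10.59 and 10.88 in NKT (difference −3.48 ± 0.19, limma adjusted p = 2.57e-09). Mmp9, a gelatinase best known from neutrophils, stood at 7.23 and 7.24 in Tgd and at 10.66 and 10.42 in NKT (difference −3.31 ± 0.32). Atp8a2, a phospholipid flippase, stood at 8.53 and 8.35 against 11.50 and 11.45 (difference −3.04 ± 0.11). No array of either population overlapped with the other in these genes. The mean of Atp8a2 was between 6.43 and 7.31 in every population other than these. Asb2, a substrate receptor of a ubiquitin ligase, differed by −2.93, and the death ligand gene Fasl by −2.82. Entpd1 (CD39, an ectoenzyme that degrades extracellular ATP) differed by −2.81, and the transcriptional repressor Bhlhe40 by −2.75. Trpm6 (−2.75), Atp6v0d2 (−2.64), the Ly49 receptor gene Klra5 (−2.53) and Socs2 (−2.51) were next.

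The genes of the IFNg receptor differed in 1 chain only by the test used here. Ifngr2 stood at 9.57 and 9.62 in Tgd and at 7.36 and 7.23 in NKT, a difference of 2.30 ± 0.12 or 4.92-fold (limma adjusted p = 9.95e-10). The Tgd arrays lay more than 2 log2 units above the NKT arrays. Ifngr1, the ligand-binding chain, stood at 11.82 and 11.86 in Tgd and 11.66 and 11.60 in NKT (difference 0.21 ± 0.11, limma adjusted p = 0.359). Across the 9 populations the mean of Ifngr2 ran from granulocytes (GN, 11.45 ± 0.06, SD, 2 arrays each) and dendritic cells (DC, 11.40 ± 0.03) over T4 (10.61 ± 0.12), MF (10.57 ± 0.02), CD25+ CD4+ T cells (Treg, 10.52 ± 0.08) and T8 (9.94 ± 0.09) to Tgd (9.60 ± 0.04), NKT (7.30 ± 0.09) and NK (7.16 ± 0.25). NKT and NK lay within the spread of the NK arrays, as T4, MF and Treg lay within that of the T4 arrays, and GN and DC within that of the GN arrays. Tgd thus stood next to the conventional T cells in this order and NKT next to NK cells.

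The kinase and factor genes below the receptor differed less. Jak1 differed by 0.10 ± 0.08 (limma adjusted p = 0.721). Jak2 was lower in Tgd, at 10.63 and 10.65 against 11.41 and 11.37 (difference −0.75 ± 0.12, limma adjusted p = 0.000459), and did not reach 2-fold. Irf1, a transcription factor that IFNg induces, stood at 11.82 and 11.85 in Tgd and at 10.97 and 11.11 in NKT (difference 0.80 ± 0.10, limma adjusted p = 4.45e-05), also under 2-fold, and its second probe set differed by 0.30. Of 21 measured genes of the receptor and its signalling, 2 were higher in Tgd (Ifngr2 and Irf8), none was higher in NKT, and the median was 0.19. Irf8, a transcription factor of myeloid and B cells, stood at 9.73 and 10.20 against 8.82 and 9.11 (difference 1.00 ± 0.16), at the 2-fold limit, and was under it at 0.86 without NKT replicate 1 and at 0.77 without Tgd replicate 3.

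Among genes of interferon signalling, response and feedback, more were higher in Tgd than in NKT. The 7 interferon lists together held 163 measured genes, of which 21 were higher in Tgd (12.9%) and 2 in NKT (1.23%), against 1.11% and 0.881% of all genes, and the median was 0.19. These lists also hold the receptor and signalling genes and inhibitors of cytokine signalling. Ifngr2 therefore counts among the 21 and Socs2 among the 2. Without NKT replicate 1 the count higher in Tgd was 15, and without NKT replicate 2 it was 25. The interferon-inducible GTPases attack vacuoles that hold pathogens. All 15 measured GTPase genes had a difference above 0, from 0.34 to 1.79 with a median of 0.75, and 5 passed. Iigp1 stood at 10.18 and 10.16 in Tgd and at 8.25 and 8.5 in NKT (difference 1.79 ± 0.19, limma adjusted p = 3.88e-06). Gbp11 stood at 10.26 and 10.71 against 8.68 and 8.73 (difference 1.78 ± 0.17), and Gm12185 at 9.10 and 9.34 against 7.49 and 7.42 (difference 1.76 ± 0.14). Tgd arrays lay above NKT arrays in each of these. Gm4951 (1.20) and Gbp3 (1.14, and 0.91 without NKT replicate 1) passed as well.

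Among 57 antiviral interferon-stimulated genes, 6 were higher in Tgd, none was higher in NKT, 49 had a difference above 0 and the median was 0.26. Oasl2, of the oligoadenylate synthetase family, stood at 10.03 and 10.26 in Tgd and at 8.36 and 8.70 in NKT (difference 1.62 ± 0.15). Usp18, which removes ISG15 and dampens type I interferon signalling, stood at 11.34 and 11.49 against 9.70 and 10.37 (difference 1.38 ± 0.17). The other 4 were Slfn5 (1.24), Cmpk2 (1.22, and 0.96 without NKT replicate 1), Ifitm1 (1.09, with 1.78 in a second probe set) and Samhd1 (1.07). In all 6 the lower Tgd array lay above the higher NKT array. NKT replicate 1 was the lower NKT array in 5 of the 6, Ifitm1 being the exception.

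None of 21 measured MHC class I and peptide-loading genes passed, the class I transactivator Nlrc5 differing most at 0.53 ± 0.09 (limma adjusted p = 0.000781). Since 1.99% of all genes passed, a count of none in a list of this length is no result about its members. Of 11 genes of the class II pathway 3 passed, all higher in Tgd. H2-Ob, which tunes peptide exchange on class II, stood at 9.60 and 10.03 in Tgd and at 7.09 and 7.52 in NKT (difference 2.51 ± 0.17). H2-DMa (1.35, and 1.1 with limma adjusted p = 0.0594 without NKT replicate 1) and the protease gene Ctss (1.22, and 0.95 without NKT replicate 1) were the others. The class II molecule itself did not follow, with H2-Aa at −0.21, H2-Ab1 at −0.15 and the invariant chain Cd74 at 0.16, none passing. In T4 and T8 the means of the 3 genes that passed, H2-Ob, H2-DMa and Ctss, were 9.72 to 10.23. B cell markers moved with these genes, 5 of 18 being higher in Tgd. All 18 had a difference above 0, with a median of 0.53. Their summed intensity was 4403 and 5041 on the Tgd arrays and 2307 and 2434 on the NKT arrays. Among them 10 of 18, Pax5 and Ebf1 included, lay below the array median on all 4 arrays, and the part of B cells in these differences was not tested.

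Of 25 interferon-responsive chemokine and effector genes, 3 were higher in Tgd and the median was 0.12. Casp1, the inflammatory caspase that matures interleukin-1 beta and interleukin-18, stood at 7.79 and 7.90 in Tgd and at 5.67 and 5.74 in NKT (difference 2.13 ± 0.14). Casp4, the caspase of the noncanonical inflammasome, differed by 1.42 and the cytokine gene Il15 by 1.70. These 3 genes were also low in T4 and T8, with means of 5.07 to 7.20, so that for them Tgd stood above both conventional T cells and NKT. Cxcl10 differed by 0.84 ± 0.39 (limma adjusted p = 0.299).

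The list of cytokine signalling inhibitors and interferon feedback genes went both ways. Of its 22 genes, 3 (Socs3, Usp18 and Cd274) were higher in Tgd and 2 (Socs2 and Pdcd1lg2) in NKT. Socs2, which restrains growth hormone and some cytokine receptors, stood at 7.73 and 7.96 in Tgd and at 10.41 and 10.30 in NKT (difference −2.51 ± 0.21), with −1.29 in a second probe set. Socs1, the main inhibitor of IFNg signalling, was at 9.75 and 9.57 against 8.87 and 9.05 (difference 0.70 ± 0.17, limma adjusted p = 0.0125) and under 2-fold. Socs3 differed by 1.06 in the brighter probe set and 0.42 in the other, and lost its call when any of 3 arrays was left out. Without NKT replicate 1 it was 0.97 (limma adjusted p = 0.0908), with limma adjusted p = 0.0641 without Tgd replicate 2 and limma adjusted p = 0.0505 without Tgd replicate 3. The ligands of the checkpoint receptor PD-1 split. Cd274 (PD-L1) stood at 11.23 and 11.34 in Tgd and 9.89 and 10.04 in NKT (difference 1.32 ± 0.10), while Pdcd1lg2 (PD-L2) stood at 7.05 and 6.94 against 8.58 and 8.15 (difference −1.37 ± 0.14).

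**Figure D2:**
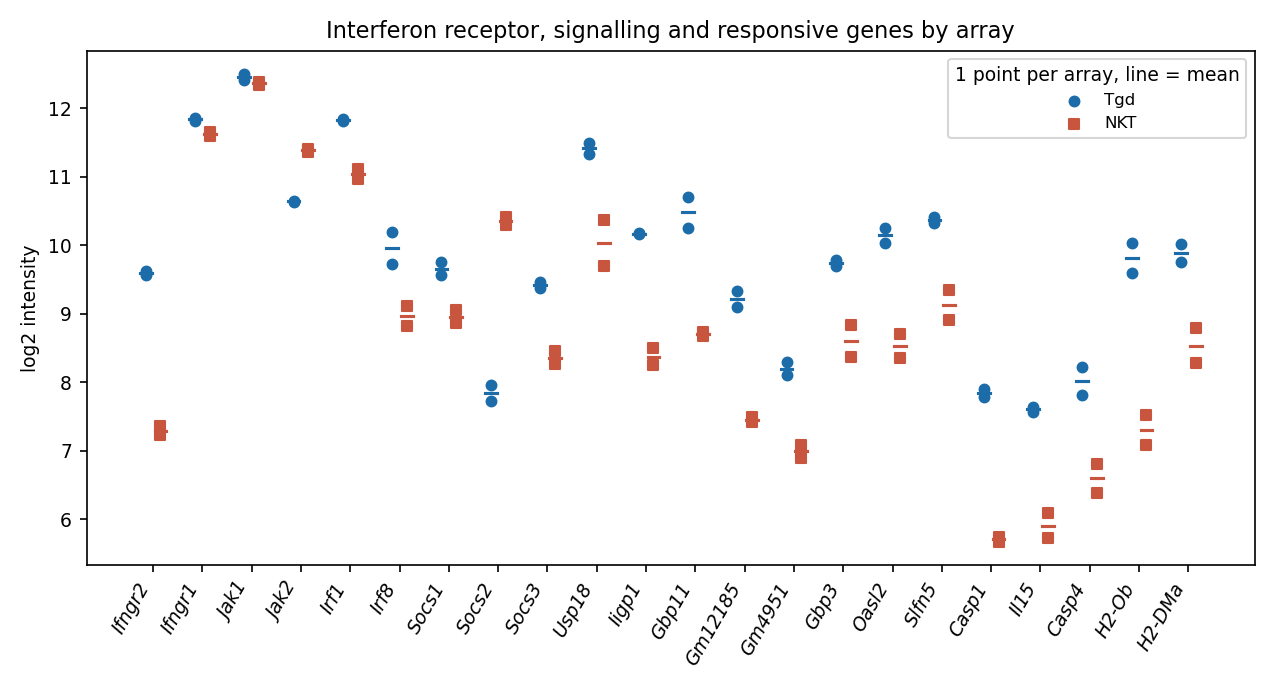
Log2 intensity (vertical axis) of the interferon receptor, signalling and responsive genes on each Tgd array (blue circles) and NKT array (red squares), with a line at each mean. Ifngr2 and the GTPase genes separate the populations with Tgd on top, Ifngr1 and Jak1 lie close together, and Jak2 and Socs2 have NKT on top; heights of different genes are not comparable.

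Promoters of these genes were searched for the letters of interferon response elements, in the 250 bases before the start of a gene as RefSeq gives it (assembly GRCm38.p6). The gamma-activated site (GAS), an element of IFNg-induced promoters, was written TTCNNNGAA and reads the same on either strand. The interferon-stimulated response element (ISRE) was written GAAANNGAAA and searched on both strands. Irf1, Gm12185 and Irf8 are shown as examples of windows that hold a GAS match. The windows of Samhd1 and Socs3, also described above, hold a GAS match too and are not shown. Capitals mark the matches, in Gm12185 a GAS and then an ISRE match, and in Irf8 a pair of GAS matches.

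Irf1 (chr11:53769764-53770013, + strand): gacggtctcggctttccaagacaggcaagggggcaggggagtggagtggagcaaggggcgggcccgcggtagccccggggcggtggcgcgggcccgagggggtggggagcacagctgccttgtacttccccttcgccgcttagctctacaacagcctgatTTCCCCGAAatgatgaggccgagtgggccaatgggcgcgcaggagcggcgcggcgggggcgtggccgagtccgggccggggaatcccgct
Gm12185 (chr11:48927183-48927432, - strand): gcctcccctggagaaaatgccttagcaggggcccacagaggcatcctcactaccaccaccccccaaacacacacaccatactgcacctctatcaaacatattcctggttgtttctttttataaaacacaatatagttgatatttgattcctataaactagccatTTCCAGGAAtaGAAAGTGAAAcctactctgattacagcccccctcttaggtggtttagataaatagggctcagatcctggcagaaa
Irf8 (chr8:120736108-120736357, + strand): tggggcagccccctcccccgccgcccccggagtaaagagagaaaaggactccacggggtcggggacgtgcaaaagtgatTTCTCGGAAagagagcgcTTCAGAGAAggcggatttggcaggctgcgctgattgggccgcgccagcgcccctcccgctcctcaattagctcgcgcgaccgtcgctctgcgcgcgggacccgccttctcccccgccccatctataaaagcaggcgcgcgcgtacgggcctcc

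The GAS match began 90 bases before the start in Irf1, 86 in Gm12185 and, for the first, 171 in Irf8. Of 32851 windows in the table, 7.02% held a GAS and 2.98% an ISRE match, and the matches overlapped each other in 18 windows. Among 117 interferon genes with a window, 18 held a GAS match (15.4%) and 31 an ISRE match (26.5%). A gene counted where any of its windows held a match, so the shares of genes and the shares of windows are not like for like. Of the 16 that were higher in Tgd, 4 held a GAS (Gm12185, Irf8, Samhd1 and Socs3) and 4 an ISRE match, which is 25% each. Of the 100 that did not pass, 14 (14%) and 27 (27%) did. These shares were not tested against each other, and a match describes letters in a window, not binding.

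Of 27 measured genes known from gamma delta cells 9 were higher in Tgd, 3 were higher in NKT and 15 did not pass, and the median was 0.53. The rule for named genes takes 6 members of a list, and others are named below after their values were seen. Id3, which is induced by receptor signals in gamma delta development, stood at 9.34 and 8.86 in Tgd and at 6.77 and 7.0 in NKT (difference 2.22 ± 0.15). Blk, a Src-family kinase needed by interleukin-17 producing gamma delta cells, stood at 8.88 and 9.02 against 7.10 and 7.08 (difference 1.86 ± 0.16). The scavenger receptor family gene 5830411N06Rik stood at 8.87 and 8.88 against 7.21 and 7.09 (difference 1.73 ± 0.11). Arrays did not overlap in these 3 genes, and the mean of Blk was at most 7.64 in any other population and that of 5830411N06Rik at most 7.40. Sox4 (1.43), Tmem176b (1.21), the scavenger receptor gene Cd163l1 (1.18), the chemokine receptor gene Ccr6 (1.18) and Tmem176a (1.01) were higher in Tgd as well, Tmem176a being 0.86 without NKT replicate 1 and 0.92 without Tgd replicate 3.

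The cytokines of that programme did not pass. Il17a stood at 6.86 and 6.47 in Tgd and 6.55 and 6.77 in NKT (difference 0.01 ± 0.15), and Il17f differed by 0.21. Sox13, a factor of interleukin-17 producing gamma delta cells, differed by 0.60 ± 0.12 (limma adjusted p = 0.00283) and stayed under 2-fold. The members on the NKT side were the monocyte and T cell chemokine receptor gene Ccr2 (−2.14), Etv5 (−1.64, with −1.73 in a second probe set) and Maf (−1.29). Etv5 stood at 7.24 and 7.38 in Tgd and at 9.01 and 8.90 in NKT, although it is known as a factor of gamma delta cells.

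Of 29 measured genes known from NKT cells, 13 were higher in NKT and 1 in Tgd, with a median of −0.73. Zbtb16, the factor PLZF, stood at 9.75 and 10.06 in Tgd and at 11.44 and 11.45 in NKT (difference −1.54 ± 0.17, limma adjusted p = 9.84e-06). Its Tgd level was above the means of NK (9.22), T4 (8.54) and T8 (7.49). Il4, the type 2 cytokine that NKT cells make early, stood at 7.41 and 7.79 against 9.96 and 9.83 (difference −2.30 ± 0.14). Arrays did not overlap in either gene. Cxcr6, a chemokine receptor gene of tissue-patrolling lymphocytes, stood at 10.35 and 10.39 in Tgd and at 12.51 and 12.57 in NKT (difference −2.17 ± 0.16), the brightest of the 9 populations. The interleukin-12 receptor gene Il12rb2 (−1.93), Cxcr3 (−1.88), the adhesion gene Cd44 (−1.68), Zbtb7b (−1.62), the interleukin-18 receptor gene Il18rap (−1.52), Tbx21 (−1.27), Slamf1 (−1.11), Klrb1a (−1.06) and Klrd1 (−1.03) went the same way. Klrb1c, the 13th, was used by the gate. Slamf1 was under 2-fold without NKT replicate 2 (−0.89) and without Tgd replicate 2 (−0.98), Klrb1a without NKT replicate 2 (−0.73) and Klrd1 without Tgd replicate 3 (−0.85).

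The T-box factors of effector lymphocytes went in opposite directions. Tbx21 (T-bet) stood at 10.45 and 10.50 in Tgd and at 11.72 and 11.77 in NKT (difference −1.27 ± 0.16). Eomes stood at 10.40 and 10.65 in Tgd and at 7.94 and 8.32 in NKT (difference 2.39 ± 0.21, limma adjusted p = 3.72e-07). NK cells had means of 12.24 for Tbx21 and 11.89 for Eomes, so that NKT was near NK in Tbx21 alone, and the Eomes mean of T8 was 10.54. Of 45 lineage factors, 11 were higher in Tgd and 6 in NKT, with a median of 0.17. Myb, which keeps lymphocyte progenitors and memory cells, stood at 11.09 and 11.11 against 8.68 and 8.89 (difference 2.32 ± 0.13), the highest mean of the 9 populations being that of Tgd. Tox (1.5), Ahr (1.55), Klf2 (1.36), Lef1 (1.08) and Zeb2 (1.02) were also higher in Tgd. Without NKT replicate 1 Lef1 was 0.97 and Zeb2 0.79, and without Tgd replicate 2 Zeb2 was 0.97. Prdm1 (Blimp-1), a factor of terminal effector cells, stood at 6.57 and 6.51 in Tgd and at 8.15 and 8.35 in NKT (difference −1.71 ± 0.17), and Rora differed by −1.26. The receptor-induced factors Nr4a2 (2.00) and Nr4a1 (1.75) were higher in Tgd, and both lost their call when an array was left out. Nr4a2 reached a limma adjusted p = 0.0598 without NKT replicate 1, 0.0683 without NKT replicate 2 and 0.0923 without Tgd replicate 3, and Nr4a1 reached 0.0756 without NKT replicate 2 and 0.0559 without Tgd replicate 3.

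**Figure D3:**
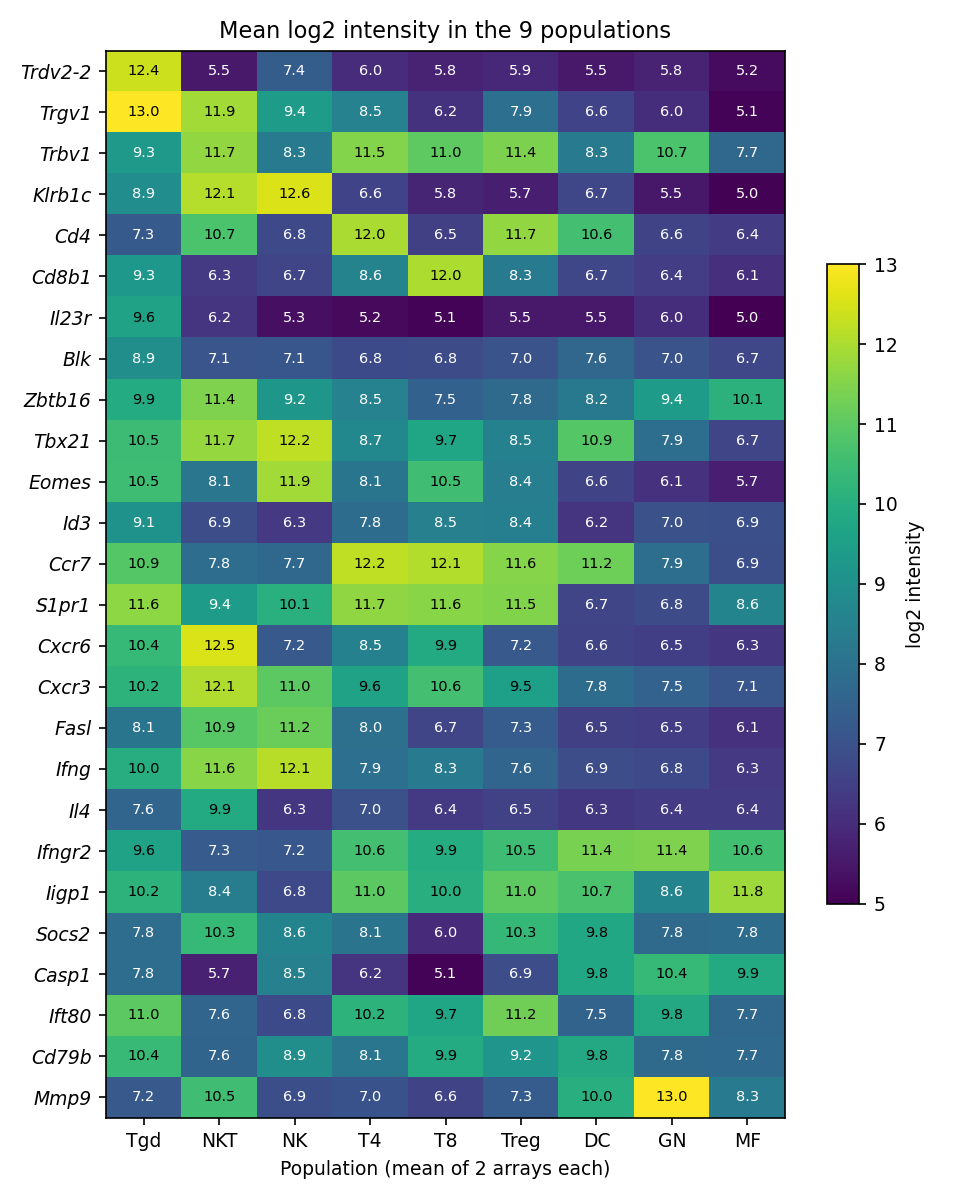
Mean log2 intensity (colour and printed value, 2 arrays each) of the genes in rows in each of the 9 populations in columns. Il23r and Trdv2-2 are bright in Tgd alone among these populations, Cxcr6 is brightest in NKT, and Ifngr2, Fasl and Tbx21 place NKT beside NK; colours compare populations within a row, not genes.

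Of 32 NK receptor genes 10 were higher in NKT, Klrb1c of the gate among them, 4 were higher in Tgd and 18 did not pass, with a median of −0.75. Klrk1, which encodes the activating receptor NKG2D, stood at 8.69 and 8.99 in Tgd and at 11.27 and 10.89 in NKT (difference −2.24 ± 0.15), against a mean of 12.06 in NK. Klra5 stood at 6.20 and 5.71 against 8.46 and 8.52. NKT arrays lay between Tgd and NK for both genes. Other Ly49 genes on that side were Klra6 (−1.81) and Klra3 (−1.70), near relatives of each other whose probes may catch both, followed by Klrb1f (−1.59), Klrc3 (−1.34) and the signalling adaptor Fcer1g (−1.01). Fcer1g fell under 2-fold at −0.98 without NKT replicate 2 and at −0.74 without Tgd replicate 3. Klri1, an NK lectin-like receptor gene, went the other way, at 10.15 and 10.61 in Tgd and 7.88 and 8.10 in NKT (difference 2.40 ± 0.17), with means of 10.32 in NK and 4.61 in T4. The leukocyte receptor genes Lilr4b (3.06) and Lilrb4a (1.89), close relatives of each other, and Crtam (1.25, and 0.94 without NKT replicate 1) were higher in Tgd.

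Of 22 cytotoxic genes 1 passed, with a median of −0.15. Beside the 1.99% of all genes that passed, 1 in a list of this length is no result about the list. Fasl stood at 8.0 and 8.17 in Tgd and at 10.91 and 10.91 in NKT (difference −2.82 ± 0.20), with 11.21 in NK. The granule genes did not pass: Gzmb differed by −0.94 ± 0.35 (limma adjusted p = 0.155), Gzma by 0.12 ± 0.30 and Prf1 by −0.73 ± 0.17 (limma adjusted p = 0.012). Both populations were far from NK in Gzmb, at 7.35 to 8.62 on the 4 arrays against a mean of 12.54.

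Of 28 lymphocyte cytokine and chemokine genes, 3 were higher in Tgd and 5 in NKT. Ifng itself stood at 10.05 and 9.94 in Tgd and at 12.13 and 11.01 in NKT, a difference of −1.58 ± 0.53 that did not pass (limma adjusted p = 0.0989). Every NKT array lay above every Tgd array, but the NKT arrays were more than 1 log2 unit apart, and the difference was −1.02 without NKT replicate 1. T8 arrays (SD 1.6) and T4 arrays (SD 0.99) also varied in this gene, and in a fit of the 4 arrays alone the difference passed (limma adjusted p = 0.000532). Cd40lg, the ligand through which helper T cells activate B cells, stood at 7.12 and 7.43 in Tgd and at 9.76 and 9.70 in NKT (difference −2.45 ± 0.13), close in NKT to the mean of T4 (9.69). Tnfsf14 (−1.76), the dendritic cell attractant Xcl1 (−1.27) and Tnf (−1.14, and −0.97 without NKT replicate 1) were higher in NKT too. Ccl9 stood at 8.17 and 8.66 in Tgd and at 6.32 and 6.71 in NKT (difference 1.90 ± 0.19), and Tnfsf8 (CD30 ligand) differed by 1.55. Ccl3 differed by 1.60 ± 0.41 (limma adjusted p = 0.0208) and lost its call without any of the 4 arrays.

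Of 34 homing genes 6 were higher in Tgd and 7 in NKT, and the median was 0.17. Ccr7, which guides naive T cells into lymph nodes, stood at 10.85 and 10.93 in Tgd and at 7.70 and 8.0 in NKT (difference 3.04 ± 0.13, limma adjusted p = 1.69e-10). S1pr1, the receptor for exit into lymph and blood, stood at 11.60 and 11.68 against 9.26 and 9.55 (difference 2.24 ± 0.14). For both genes the Tgd arrays were closer to T4 and T8, with means of 12.22 and 12.08 for Ccr7 and 11.66 and 11.57 for S1pr1, and the NKT arrays closer to NK, with 7.69 and 10.06. Klf2, the factor that drives S1pr1, and Cxcr4 (1.32) were higher in Tgd as well. Itgae (CD103, an integrin that binds epithelium) stood at 9.41 and 9.76 against 6.53 and 6.60 (difference 3.02 ± 0.23). Besides Cxcr6, Cxcr3, Ccr2 and Cd44, the integrin genes Itga1 (−1.78), Itga2 (−1.08) and Itgb1 (−1.07) were higher in NKT. Itga2 fell under 2-fold without NKT replicate 2 (−0.97) and without Tgd replicate 3 (−0.99).

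The markers of conventional T cells were measured in 10 genes, of which 6 were higher in Tgd and 2 in NKT, with a median of 1.63. Cd8b1, the beta chain of CD8, stood at 9.24 and 9.28 in Tgd and at 6.32 and 6.38 in NKT. Its mean was 12.01 in T8, but also 8.58 in T4 and 8.26 in Treg. Cd8a differed by 0.50 ± 0.15 (limma adjusted p = 0.0549). Actn1 (2.51), Igfbp4 (2.18) and Dapl1 (3.61), genes bright in naive T cells, and Lef1 were higher in Tgd. The summed intensity of the 10 markers was 15955 and 16490 on the Tgd arrays and 10050 and 10725 on the NKT arrays, and at least 34319 in T4 or T8. Cd4 and Zbtb7b, the factor of the CD4 lineage, were on the NKT side, and the mean of Cd4 in T4 was 11.99. Whether cells of these lineages within the gates contributed was not tested.

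Among 31 cytokine receptor chains 4 were higher in Tgd and 3 in NKT. Beside Il23r, these were Kit, the stem cell factor receptor gene, at 9.10 and 9.52 against 6.81 and 6.79 (difference 2.51 ± 0.14), Il6st (1.61) and Il6ra (1.25), which together form the interleukin-6 receptor. On the NKT side were Il12rb2, Il18rap and Il2ra (−1.07), the last falling to −0.99 without NKT replicate 2 and −0.95 without Tgd replicate 2. Among 29 checkpoint and costimulatory genes the counts were 4 and 4. Pdcd1 (PD-1) stood at 10.25 and 10.45 in Tgd and at 8.18 and 8.69 in NKT (difference 1.91 ± 0.18), and no other population had a mean above 9.09. Cd200 (1.66) and Dpp4 (1.34) were also higher in Tgd. Icos, a costimulatory receptor, stood at 9.32 and 9.58 against 11.54 and 11.54 (difference −2.09 ± 0.14), and Entpd1, Tnfrsf18 (GITR, −1.18) and Tnfrsf25 (−1.17) were higher in NKT.

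**Figure D4:**
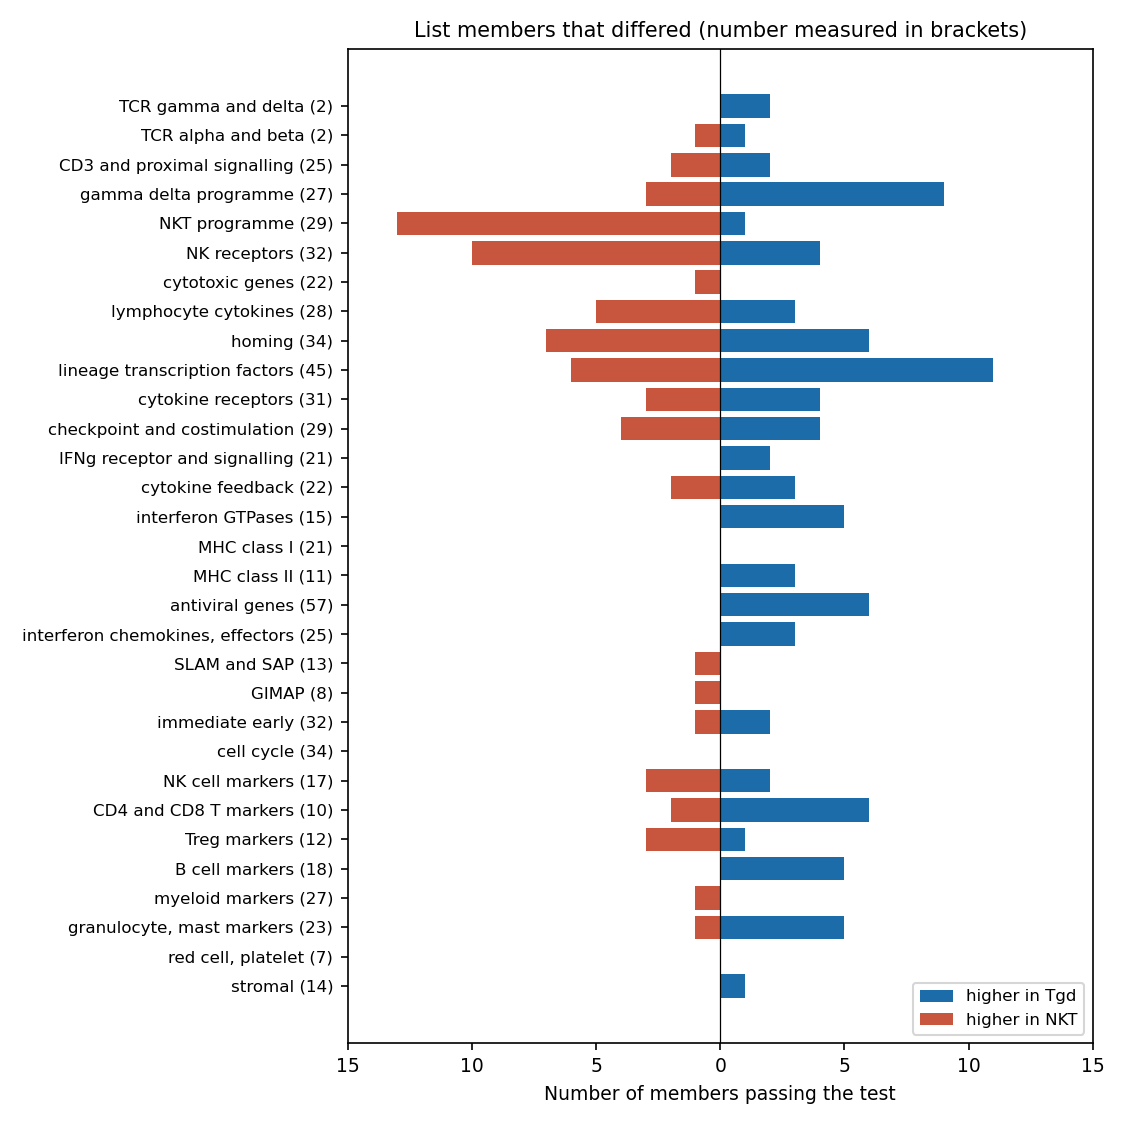
Number of members of each gene list that passed the test, with those higher in Tgd to the right (blue) and those higher in NKT to the left (red); measured members are in brackets. The NKT programme with 13 of 29 and the NK receptors with 10 of 32 lean to NKT. Of the 7 interferon lists 5 lean to Tgd, while the feedback genes split 3 to 2. No MHC class I gene passed, which is no result about that list where 1.99% of all genes passed.

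A run of neighbouring genes on chromosome 3 was higher in Tgd. The miRNAs there are shown first, because the differences include the probe set of Mir15b, and because they share their seed, the bases 2 to 8 that pair with targets (capitals). Both mature sequences are from RefSeq (GRCm38.p6, + strand) and are 22 bases long.

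mmu-miR-15b-5p (chr3:69009775-69009796): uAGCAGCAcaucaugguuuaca
mmu-miR-16-5p (chr3:69009918-69009939): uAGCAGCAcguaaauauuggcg

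In the order of the chromosome, Ift80 (intraflagellar transport), Smc4 (a condensin subunit), Mir15b, Mir16-2 and Trim59 follow each other. Ift80 is among the largest differences, and the others were named after their values were seen. Ift80 stood at 10.96 and 11.03 in Tgd and at 7.35 and 7.86 in NKT (difference 3.39 ± 0.19). Smc4, whose span contains both miRNAs, stood at 11.75 and 11.72 against 9.65 and 9.80 (difference 2.01 ± 0.16). The probe set of Mir15b stood at 7.85 and 7.09 against 4.47 and 4.39 (difference 3.04 ± 0.27). Tgd arrays were above NKT arrays in all 3 genes, and Ift80, Smc4 and Mir15b were 1 of only 2 runs of at least 3 neighbouring tested genes that passed in the same direction, the other being Klrd1, Klrk1 and Klrc3. Mir16-2 differed by 0.99 ± 0.14 (limma adjusted p = 7.65e-05), just under 2-fold, and Trim59 by 1.56 ± 0.14. The flanking genes Il12a (0.16), 1110032F04Rik (0.17), Kpna4 (0.19) and Arl14 (0.08) did not pass. The NK means were 6.80 for Ift80, 9.25 for Smc4 and 7.48 for Trim59 against 10.17, 10.84 and 8.69 in T4, so that NK was also under T4 in these genes. The NKT mean was 7.61 for Ift80, as low in DC (7.54) and MF (7.69), and 6.52 for Trim59, below NK. These probe sets read transcripts of the locus and not the mature miRNAs, and since the miRNA genes lie within Smc4, their signals cannot be told apart from that of the host transcript.

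To place both sets of genes among other lymphocytes, NK was set against the mean of T4 and T8. Those arrays do not enter the difference between Tgd and NKT, but they supply part of the spread by which its genes were called. In that comparison 605 genes were higher in NK (3.06% of all tested) and 466 in T4 and T8 (2.36%), 5.42% in all. Of the 220 genes higher in Tgd, 81 (36.8%) were higher in T4 and T8 than in NK, which is 17.4% of that list, and 31 (14.1%) were higher in NK, which is 5.12%. Of the 174 genes higher in NKT, 58 (33.3%) were higher in NK, 9.59% of that list, and 25 (14.4%) higher in T4 and T8, 5.36%. Genes of either set were thus called more often than the background in both directions. The median difference of NK minus T cells was −0.46 over the genes higher in Tgd and 0.42 over those higher in NKT. The exceptions were large, with Klri1 and Eomes higher in Tgd and in NK, and Cd4 and Icos higher in NKT and in the T cells.

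**Figure D5:**
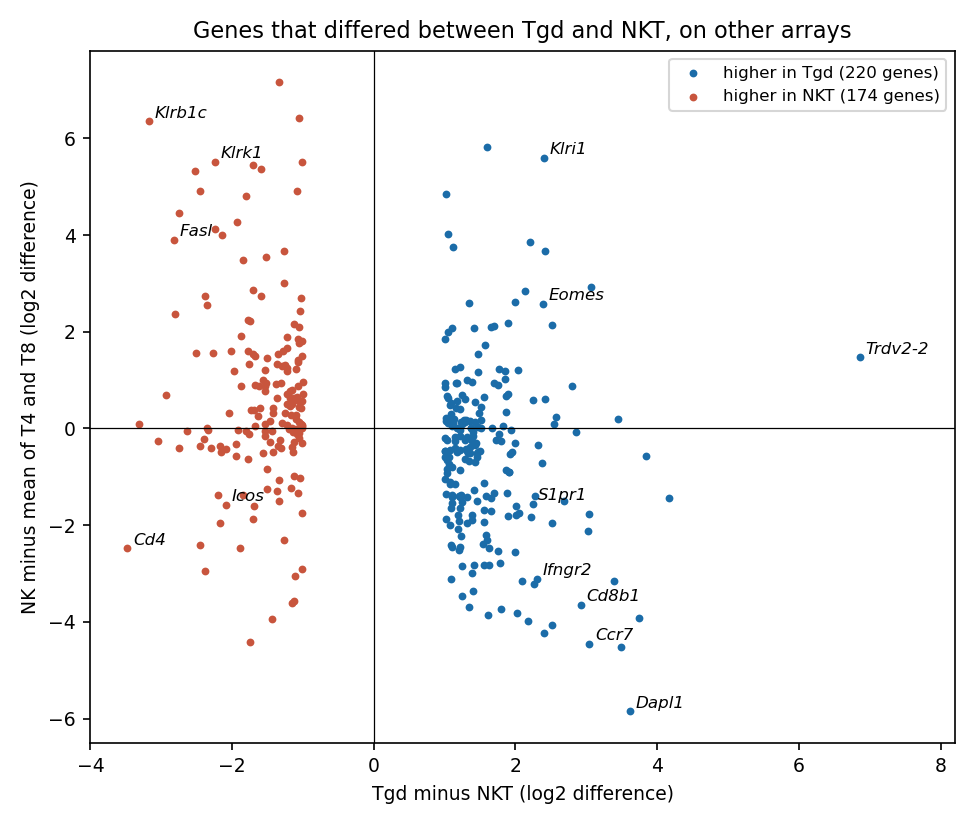
Difference between NK and the mean of T4 and T8 (vertical axis, log2) against the difference between Tgd and NKT (horizontal axis, log2) for genes that passed in the latter; the empty strip is the 2-fold limit. Genes higher in Tgd (blue) have a median of −0.46 on the vertical axis and genes higher in NKT (red) a median of 0.42, with Dapl1 and Ccr7 lowest among the labelled genes and Klrb1c highest.

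Further lists had few passing members or none, beside 1.99% of all genes tested. None of 34 cell cycle genes passed, the largest difference being Stmn1 at 0.78 ± 0.27 (limma adjusted p = 0.106). At the share over all genes, a count of none in a list of this length is no result about its members. Of 13 SLAM receptor and adaptor genes Slamf1 alone passed, and of 8 GIMAP genes Gimap7 (−1.1, limma adjusted p = 0.012), whose call was lost without any of the 4 arrays. Besides Nr4a1 and Nr4a2, 1 of 32 immediate early genes passed, Rgs1 at −1.23 (limma adjusted p = 0.0519 without NKT replicate 1). Of 25 CD3 and proximal signalling genes 2 passed in each direction, Cd8b1 and Cd247 toward Tgd and Cd4 and Fcer1g toward NKT. These 4 of 25 are a larger share than that over all genes.

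Markers of other cells that a sort can carry were also read. Of the B cell genes, Cd79b stood at 10.46 and 10.38 in Tgd and at 7.40 and 7.75 in NKT (difference 2.85 ± 0.19), but also at 9.91 in T8. Ms4a1 (CD20) stood at 7.34 and 8.13 against 5.59 and 5.81 (difference 2.04 ± 0.29). Cd79a (1.38, and 0.94 without NKT replicate 2), Fcmr (1.17) and Pou2af1 (1.1, and 0.98 without Tgd replicate 3) completed the 5. Of 23 granulocyte and mast cell genes 5 were higher in Tgd and 1, Mmp9, in NKT. A difference above 0 was found in 21 of the 23, with a median of 0.41. Cpa3, a mast cell and basophil protease gene, stood at 7.85 and 7.91 in Tgd and at 5.24 and 5.42 in NKT (difference 2.55 ± 0.13), and its mean was at most 6.16 in any other population. Mcpt8, Ms4a2 and Cd200r3, known from basophils and mast cells, were higher in Tgd by 1.22, 1.22 and 1.12 at intensities below the array median, and Ms4a2 was 0.89 without Tgd replicate 3. After adding 50 to each intensity these differences were 0.65, 0.46 and 0.37 and none passed. Fcer1a (0.81) and Gata2 (0.53), also known from these cells, did not pass. Cxcr2, a neutrophil chemokine receptor gene, differed by 2.24, also below the array median. The summed intensity of the 23 genes was 2513 and 2136 on the Tgd arrays and 3024 and 2672 on the NKT arrays, where Mmp9 contributed, against at least 105352 in GN. S100a8, S100a9 and Ly6g were among 18 members below the array median on all 4 arrays.

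NK cell markers summed to 6212 and 6664 in Tgd and to 11476 and 11960 in NKT, against at least 61062 in NK, with Klrb1c among them. Ncr1, which encodes the NK receptor NKp46, stood at 8.46 and 7.77 in Tgd and 8.89 and 9.03 in NKT against 13.00 in NK. Regulatory T cell markers summed to 6625 and 7401 in Tgd and to 7865 and 8572 in NKT, and Foxp3 differed by −0.12. In that list Itgae was higher in Tgd, and Tnfrsf18, Il2ra and Izumo1r were higher in NKT, the last at −1.01 and under 2-fold without NKT replicate 2 (−0.86) and without Tgd replicate 2 (−0.67). Myeloid markers summed to 4302 and 4906 in Tgd and 5608 and 6130 in NKT, and only Ccr2 of 27 passed. Of 14 stromal and endothelial genes Pecam1, which T cells also carry, was higher in Tgd (1.46). No red cell or platelet gene of 7 passed. With 1.99% of all genes passing, counts of 1 or none in the myeloid, stromal and red cell lists are no result about them. The part of such cells in the differences described above was not tested.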

How the data were processed

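RNA of sorted cells was read on 1-colour Affymetrix arrays of the whole-transcript type (Mouse Gene 1.0 ST). The deposited values were linear intensity values, 1 per probe set, made by the authors with Affymetrix Power Tools and RMA per the submitters' processing notes. Their versions, and whether the arrays were normalized as 1 set, are not given in the sources used here. Values ran from 5.27 to 18280, so log2 was taken. RMA compresses differences of dim genes. Of 24922 probe sets, 21425 carried 1 gene symbol and were used, while 1399 with several and 2098 with none were left out. RefSeq (GRCm38.p6) held 21347 of those symbols by Entrez number. For 921 genes with several probe sets the one with the highest mean was tested, which gave 19752 genes. Precision is limited by having 2 arrays per population.

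The test was limma's moderated contrast (version 3.58.1, under R 4.3.3, eBayes with trend, two-sided, Benjamini-Hochberg over all genes) with all 18 arrays in the fit, 9 populations of 2, with 9 residual and 7.69 prior degrees of freedom. Every adjusted p and every SE is from this fit, or from a refit named beside it. On simulated data, 100 of 100 genes changed by 2 and 100 of 100 changed by 3 (log2) were recovered among 19752, and 1 unchanged gene was called. Smaller changes were not simulated, although the passing genes had a median absolute difference of 1.42, so recovery at that size is not known.

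The members and gene lists were chosen with earlier results of these data known. Named genes were the receptor, signalling and sort genes, the 12 largest differences in each direction (no clone, miRNA or pseudogene names unless listed), and up to 6 passing members of each list by size, or the largest difference where none passed. Promoter windows and miRNAs were matched by symbol. Alternatives covered normalization, an offset, probe set choice, filters, fewer arrays, a replicate block and leaving out each array.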

Additional observations from a re-analysis of the deposited data

How the results depend on the processing

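Under quantile normalization 411 genes passed, with arrays centred 391, after adding 50 to each intensity 283 (151 higher in Tgd and 132 in NKT), with probe sets averaged 388, on the 12 lymphoid arrays 396, on the 4 arrays alone 401 with 2 residual degrees of freedom, without dim genes 386 and without a trend 394, against 394. Without the 2-fold minimum 1463 passed (763 higher in Tgd and 700 in NKT), and 4230 in the NK comparison. Leaving out 1 array at a time gave 369 to 427 genes, 183 to 263 higher in Tgd, 159 to 186 higher in NKT, and 1045 to 1159 in the NK comparison. Tgd (2 and 3) and NKT (1 and 2) share only number 2, and nothing in the labels pairs them. Deviations of the arrays numbered 2 correlated at −0.201. With the replicate number as a block, 401 genes passed (206 higher in Tgd and 195 in NKT) and 1075 in the NK comparison. Of 134 passing genes (named, list members or of the locus), 98 kept their call in all 14 settings, 36 lost it in at least 1, and 0 reversed. Dropping the 2-fold minimum, which is among the 14, could not end or reverse a call. The filter of dim genes removed Cd200r3, which was not checked there. The added offset ended 20 calls, among them Gm4951, Ifitm1, Ccr6, Cd163l1 and Cd200r3. The block ended 9, those of Cd247 (0.94) and Trgv1 (1.00) among them, and with it Ifng passed (−1.80, limma adjusted p = 0.0133). Over the 7 interferon lists, a count chosen after seeing the data, the genes higher in Tgd numbered 15 to 25 over all settings with the 2-fold minimum, and those higher in NKT 2. With 2 arrays a population, differences near 2-fold could not be settled.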
